A study of Mus musculus with 6 samples.

Results

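The genes described here are the matrix metalloproteinases (Mmp), the ADAM proteins (Adam), the secreted ADAMTS proteases (Adamts), the ADAMTS-like proteins (Adamtsl) and the tissue inhibitors of metalloproteinases (Timp) of mouse 3T3-L1 cells. They were taken by name from the array's annotation, as symbols of these 5 forms followed by a number, with no use of measured values. The rule found 83 genes among 19938 with a probe set of their own: 22 Mmp, 34 Adam, 18 Adamts, 5 Adamtsl and 4 Timp genes. Of these, 33 had a mean over the arrays that reached the median of the gene means (log2 5.87), and 50 did not. The 2 classes are kept apart throughout, because a difference at a low signal depends on the background correction, which is not given in the sources used here.

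Metalloproteinases cut proteins with a zinc ion held in the catalytic site. Mmp enzymes mostly cleave collagens and other matrix proteins and are made as inactive precursors. ADAM proteins sit in the cell membrane, and several release the outer part of other membrane proteins. ADAMTS enzymes are secreted and act on proteoglycans, procollagens and microfibrils, and ADAMTS-like proteins share their accessory domains without the protease. TIMP proteins bind and block the active site. In fat tissue these families are known for remodelling the matrix while precursor cells round up and fill with lipid.

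3T3-L1 is a clonal preadipocyte line of mouse embryo fibroblasts. The 6 arrays hold 1 culture for each of 6 conditions. Undifferentiated fibroblasts were kept in calf serum for 3 days without a compound (control), with 0.5 mM adenine or with 0.5 mM AICAR. Adipocytes were induced for 3 days with insulin, dexamethasone and the phosphodiesterase inhibitor IBMX in fetal bovine serum, alone or together with either compound at 0.5 mM, and then stood for 3 more days in insulin medium that held no compound. Adenine is a free purine base. AICAR is the ribonucleoside of an imidazole precursor of purines, which cells phosphorylate to a mimic of AMP that activates the AMP-activated kinase. The adipocyte state thus always came with inducing drugs, another serum and a longer culture, and these cannot be told apart from it.

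The values are log2 signals, with array medians between 5.41 and 5.49. Each condition is 1 array, so a difference between 2 arrays has no replicate check and no test, and a difference of 1 (2-fold) served as the threshold for counts. A level of one gene's probe set cannot be set against that of another. The labelled states matched the adipocyte markers, of which 9 were on the array. Their median was 5.14 to 5.34 in the fibroblast arrays and 10.6 to 12.1 in the adipocyte arrays. Adipoq, the adiponectin gene, stood at 4.42 in control fibroblasts and 10.6 in control adipocytes. Leptin (Lep) stayed low, at 4.36 and 4.65 in those arrays, and Lpl was already bright in control fibroblasts, at 11.6 against 12.2. The fibroblast list separated the states less clearly. In adipocytes 9, 10 and 6 of its 10 markers were lower in control, adenine and AICAR medium. The median differences were -0.65, -2.19 and -0.10. Of 10 fibroblast markers, 10 were lower in adenine adipocytes than in control adipocytes, and the medians of the list in adipocytes were 11.5 (control), 9.78 (adenine) and 10.8 (AICAR). Macrophage and leukocyte markers had medians of 4.13 to 4.76, endothelial markers 4.41 to 4.80 and epithelial markers 4.92 to 5.27 over the 6 arrays. Ptprc, the common leukocyte antigen, stayed between 3.86 and 4.32, whereas the lysozyme gene Lyz2 stood at 7.99 and 8.12 in control and adenine fibroblasts and Cd68 at 7.44 in AICAR fibroblasts. In these bulk cultures fewer cells of one kind and less RNA per cell cannot be told apart.

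**Figure D1:**
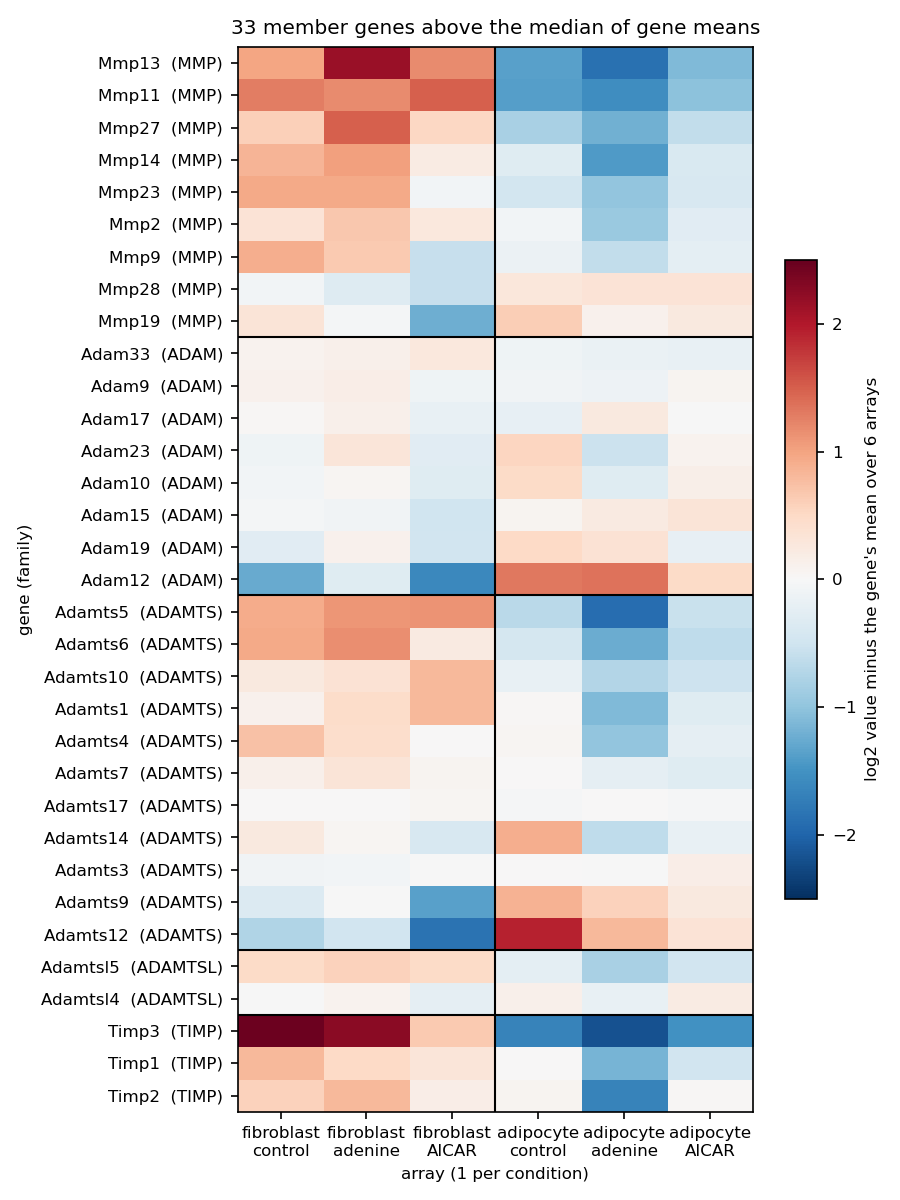
Heat map of the 33 genes above the median, one row per gene and one column per array, with the log2 value minus the gene's own mean over 6 arrays as colour (red above, blue below). Rows are grouped by family. Most Mmp and all 3 Timp rows are redder in the fibroblast columns, Adam12 and Adamts12 are redder in the adipocyte columns, and the adipocyte adenine column is the lowest of the 3 adipocyte columns in 23 of 33 rows.

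The first question was how the families differ between adipocytes and fibroblasts. Mmp11, Mmp13, Mmp27, the aggrecanase gene Adamts5 and the inhibitor gene Timp3 were at least 2-fold lower in adipocytes in each of the 3 media, whereas Adam12 and Adamts12 were at least 2-fold higher in each. An additive limma model over the 6 arrays, with state tested against medium as a block, was used as the only test. Its error is the departure from additivity between media and not the spread between cultures. In it 9 of the 33 genes fell in adipocytes (5.37% of 9969 tested genes did) and 3 rose (5.22% of all), by limma with Benjamini-Hochberg adjustment, and 21 did not pass. The filter on the mean favours falls: Timp3, Mmp27 and Adamts6 lay below the median of gene means in all 3 adipocyte arrays and entered through their fibroblast values, while no gene entered through adipocytes alone. The count of 9 is therefore no support for a direction of the families. Of the 17 genes above the 75th percentile of gene means 3 fell and 3 rose, where 605 of all 4985 such genes passed. When the pair of control arrays was left out, none of the 12 passed: limma then called 0 of all genes, with 16 of the 33 and 2095 of all genes at an unadjusted p below 0.05. With the adenine arrays left out 9 of the 12 passed, and with the AICAR arrays left out also 9.

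Mmp11, the secreted stromelysin-3 of stromal cells (chr10:75923221-75932502 in GRCm38), gave nearly the same large difference in each medium. Its values were 10.29, 10.20 and 10.51 in control, adenine and AICAR fibroblasts and 7.65, 7.47 and 7.98 in the corresponding adipocytes. The 2 groups of arrays did not overlap, and the difference was -2.64, -2.73 and -2.53 in the 3 media. The fitted fall was -2.63 (SE 0.139, limma adjusted p = 0.0023).

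Mmp13, a collagenase that cuts fibrillar collagen, had 8.11, 9.28 and 8.30 in fibroblasts and 5.75, 5.25 and 6.01 in adipocytes. The adenine fibroblasts were the highest and the adenine adipocytes the lowest of the 6. Mmp13 fell by 2.89 in the model (SE 0.364, limma adjusted p = 0.0141). Mmp27, a less studied neighbour of Mmp13 on chromosome 9, had 6.62, 7.51 and 6.53 in fibroblasts and 5.21, 4.81 and 5.40 in adipocytes. It had the same high and low arrays as Mmp13 and fell by 1.75 (SE 0.318, limma adjusted p = 0.030). The adipocyte values of Mmp27 all lie below the median of gene means, as do those of Mmp13 in the control and adenine arrays. The folds of both genes thus rest partly on dim signals.

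Mmp2 and Mmp14 work together at the cell surface, where the membrane-anchored collagenase Mmp14 activates the gelatinase Mmp2. Mmp14 had 11.43, 11.61 and 10.79 in fibroblasts and 10.27, 9.17 and 10.19 in adipocytes, with no overlap of the groups. Its difference between states was -1.16 in control medium, -2.44 with adenine and -0.59 with AICAR, and it did not pass (limma adjusted p = 0.0642). Mmp2 had 12.47, 12.82 and 12.40 in fibroblasts and 12.08, 11.21 and 11.86 in adipocytes, with differences of -0.40, -1.61 and -0.54 (limma adjusted p = 0.101). For both genes the adenine pair showed the widest gap.

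The remaining Mmp genes above the median were Mmp9, Mmp19, Mmp23 and Mmp28. Mmp23, an unusual membrane protease, had 7.84, 7.84 and 6.82 in fibroblasts and 6.42, 5.90 and 6.49 in adipocytes (limma adjusted p = 0.0651). The gelatinase Mmp9 was lower in adipocytes in control medium (-1.05) and with adenine (-1.27) but stood at 0.33 with AICAR, because AICAR fibroblasts had the low value of 5.51 against 6.99 in control fibroblasts. Mmp19 was at 0.31, 0.16 and 1.47, again with a low AICAR fibroblast value of 7.82. Mmp28, also named epilysin, was at 0.34, 0.66 and 0.90 (limma adjusted p = 0.0692).

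Among the inhibitors, Timp3 gave the largest coefficient of the 33 genes in the state model and the largest difference in control medium and with adenine; with AICAR those of Mmp11, Mmp13 and Adamts12 were larger in size. Timp3 (chr10:86300412-86349505 in GRCm38) binds the matrix and blocks Adam17 and several ADAMTS enzymes as well as Mmp enzymes. Its values were 8.92, 8.71 and 7.11 in fibroblasts and 4.80, 4.29 and 4.95 in adipocytes. The groups were far apart, and AICAR fibroblasts lay nearest to the adipocytes. The differences were -4.12, -4.42 and -2.16, and the fitted fall was -3.57 (SE 0.443, limma adjusted p = 0.0139). The 3 adipocyte values lie below the median of gene means, so the size of this fold depends on the background correction. Timp1, a secreted inhibitor, had 9.57, 9.25 and 9.06 in fibroblasts and 8.76, 7.58 and 8.28 in adipocytes and fell by 1.09 (SE 0.220, limma adjusted p = 0.0375). Timp1 did not pass without the adenine arrays. Timp2, which besides blocking Mmp enzymes helps Mmp14 to activate Mmp2, stood at -0.50, -2.48 and -0.13 (limma adjusted p = 0.198).

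**Figure D2:**
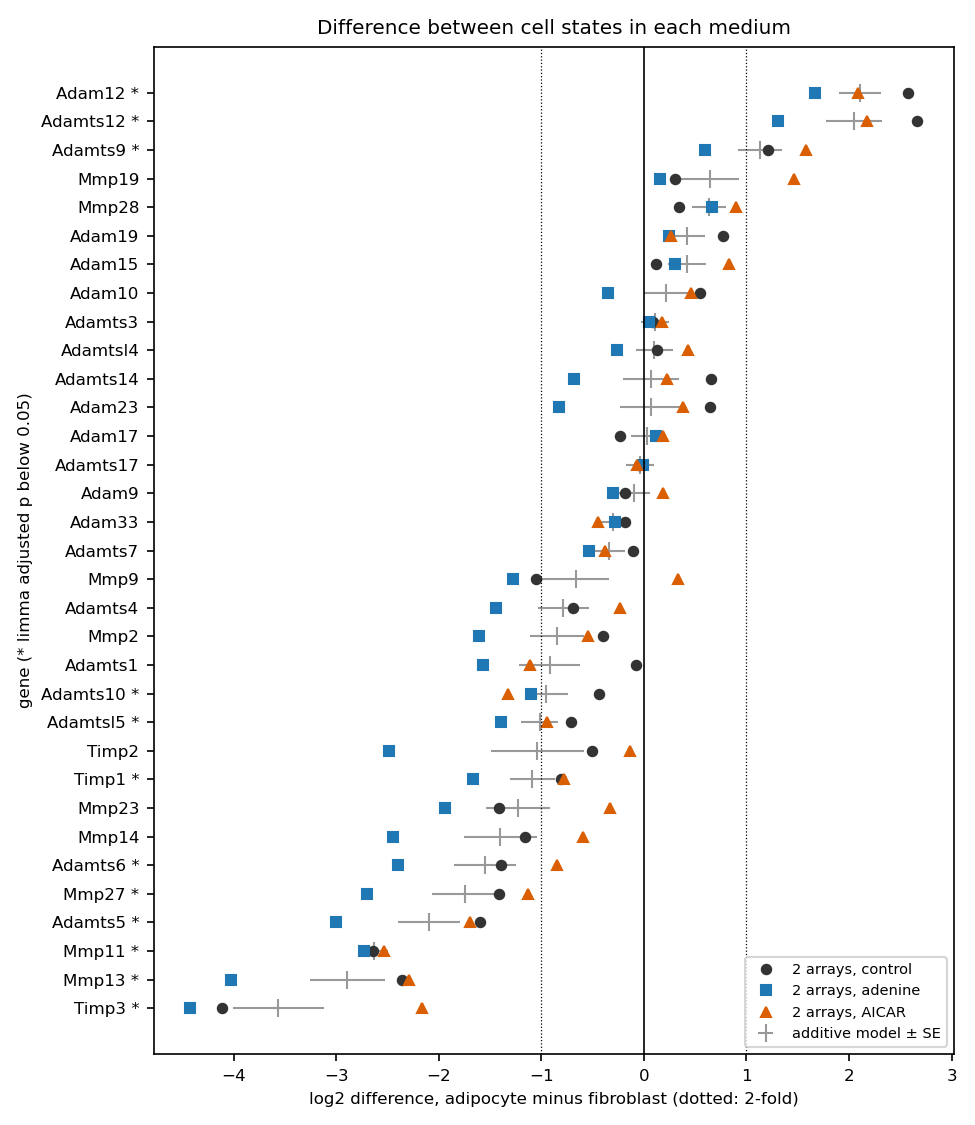
Log2 difference of adipocytes minus fibroblasts for the 33 genes above the median, with 1 point per medium (black circle control, blue square adenine, orange triangle AICAR) and the additive model's coefficient ± SE in grey. The adenine point is the lowest of the 3 for 27 of 33 genes and for 29.4% of all genes above the median. Asterisks mark the 12 genes with a limma adjusted p below 0.05.

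In the ADAMTS family the 2 directions stood side by side. Adamts5, the main aggrecan-cutting enzyme of cartilage (chr16:85858157-85901125), had 10.12, 10.30 and 10.33 in fibroblasts and 8.53, 7.30 and 8.64 in adipocytes and fell by 2.10 (SE 0.302, limma adjusted p = 0.0183). Adamts6 and Adamts10, related enzymes that act on fibrillin microfibrils, fell by 1.55 and 0.95 (limma adjusted p = 0.0348 and 0.0455). The adipocyte values of Adamts6 (5.49, 4.70 and 5.30) all lie below the median of gene means, so the size of its fold depends on the background correction. Adamts10 did not pass when any 1 of the 3 media or the filter on dim genes was left out. Adamtsl5, a microfibril-binding protein without protease activity, fell by 1.01 (limma adjusted p = 0.0286) and did not pass when any 1 of the 3 media was left out.

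Adamts12, which cuts the cartilage protein COMP, moved the other way. It had 8.45, 8.71 and 7.36 in fibroblasts and 11.12, 10.02 and 9.54 in adipocytes, and each adipocyte value exceeded each fibroblast value. The difference was 2.67 in control medium (6.35-fold), 1.30 with adenine and 2.18 with AICAR, and the fitted rise was 2.05 (SE 0.273, limma adjusted p = 0.0155). Adamts9, a versican-cutting enzyme, rose by 1.13 (SE 0.218, limma adjusted p = 0.0339), with 8.33, 8.65 and 7.32 in fibroblasts and 9.54, 9.25 and 8.90 in adipocytes. Its 6 probe sets agreed in direction, with differences of 1.12 to 1.55 in control medium. Adamts9 did not pass without the AICAR arrays.

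The versicanase and aggrecanase genes Adamts1 and Adamts4 lay below 0 in adipocytes in each medium but did not pass (limma adjusted p = 0.109 and 0.107). For Adamts1 the difference was -0.08 in control medium, -1.57 with adenine and -1.11 with AICAR. The procollagen-processing enzyme Adamts14 had no common direction, with 0.66, -0.68 and 0.22. Adamts7 stayed between -0.54 and -0.10 and Adamtsl4 between -0.26 and 0.43. Adamts3 and Adamts17 differed by at most 0.17 in size, but each is represented by the brightest of several probe sets (16 for Adamts3, 5 for Adamts17), of which 1 and 2 lay above the median of gene means. Averaged over their probe sets both genes fell below it, which left 31 genes.

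Adam12, also named meltrin alpha and known from muscle and fat cell formation (chr7:133883199-134225097), rose in adipocytes. It had 6.79, 7.74 and 6.43 in fibroblasts and 9.36, 9.41 and 8.52 in adipocytes, and the 2 groups did not overlap. The rise was 2.11 in the model (SE 0.206, limma adjusted p = 0.00883). Its close relative Adam19 (meltrin beta) stood at 0.77, 0.24 and 0.26 (limma adjusted p = 0.168).

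The remaining ADAM genes above the median, among them the membrane sheddases, differed by less than 2-fold between states in each medium. Adam10, which cuts Notch receptors and many adhesion proteins, had 9.63, 9.76 and 9.39 in fibroblasts and 10.18, 9.40 and 9.85 in adipocytes. Adam17, which releases tumour necrosis factor and ligands of the epidermal growth factor receptor, stayed between 8.24 and 8.70 over the 6 arrays. For Adam9 the differences between states were -0.19, -0.30 and 0.19, and for Adam15 they were 0.12, 0.30 and 0.83. Adam23, a brain-type ADAM without a working catalytic site, was at 0.64, -0.82 and 0.38, and Adam33 at -0.18, -0.28 and -0.45. For these 6 genes the limma adjusted p lay between 0.205 and 0.935, which does not show that they are equal in the 2 states.

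By counts at 2-fold, control adipocytes had 3 of 33 genes higher (2.88% of the 9969 genes above the median) and 9 lower (4.27%). With adenine in both states 2 were higher (6.75%) and 16 lower (8.47%), and with AICAR 4 were higher (5.93%) and 7 lower (4.6%). The medians over the 33 genes were -0.19, -0.82 and -0.13, beside 0.02, 0.03 and 0.00 over all genes above the median. The Mmp medians were -1.16, -1.94 and -0.54 over 9 genes, those of the ADAM genes 0.33, -0.08 and 0.32 over 8, those of the ADAMTS genes -0.08, -0.68 and -0.23 over 11 and those of the Timp genes -0.81, -2.48 and -0.78 over 3. The 5 genes lower by 2-fold or more in each medium compare with 1.72% of all genes, and the 2 higher ones with 1.64%. The filter on the mean favours falls here too, since Timp3, Mmp27 and Adamts6 entered through their fibroblast values. Timp3 and Mmp27 are among the 5. The lower counts and the medians are therefore no support for a direction of the families.

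The next comparison set adenine fibroblasts against control fibroblasts. The widest differences were those of a few Mmp genes on chromosome 9 and of Adam12, and the other 30 of the 33 genes stayed within 0.40 of the control. Of the 33 genes 1 was at least 2-fold higher (0.0802% of all genes above the median) and 0 at least 2-fold lower (0.0502%). Mmp13 was higher by 1.16 (2.24-fold), Adam12 by 0.95 and Mmp27 by 0.89. The next largest were Adam23 at 0.40 and Adam19 at 0.39. The median over the 33 genes was 0.11, beside -0.01 over all genes, and Timp1 (-0.31), Timp3 (-0.20) and Timp2 (0.23) were on both sides of 0. Below the median of gene means 2 of 50 genes were at least 2-fold apart (0.14% of genes in that class), and both are Mmp genes of chromosome 9. Mmp3, the broad-acting stromelysin-1, had 5.84 in control and 7.40 in adenine fibroblasts, a difference of 1.56. Mmp8, the neutrophil-type collagenase, had 4.91 and 6.27, a difference of 1.36.

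Mmp13, Mmp3, Mmp8 and Mmp27 belong to 10 Mmp genes that lie next to each other with no other protein-coding gene between them in RefSeq (chr9:7272514-7699585 in GRCm38). Along the chromosome the order is Mmp13, Mmp12, Mmp1b, Mmp3, Mmp1a, Mmp10, Mmp8, Mmp27, Mmp20 and Mmp7. That the 4 genes are neighbours was noticed after their values were seen. The other 6 genes lay below the median of gene means and showed adenine differences in fibroblasts between -0.21 (Mmp10) and 0.11 (Mmp7). A dim gene may lie below what the probe set can measure, so these values do not show that the 6 genes kept still. In adipocytes the 4 genes were low on all 3 arrays, with adenine differences of -0.50 for Mmp13, -0.47 for Mmp3, -0.06 for Mmp8 and -0.40 for Mmp27.

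**Figure D3:**
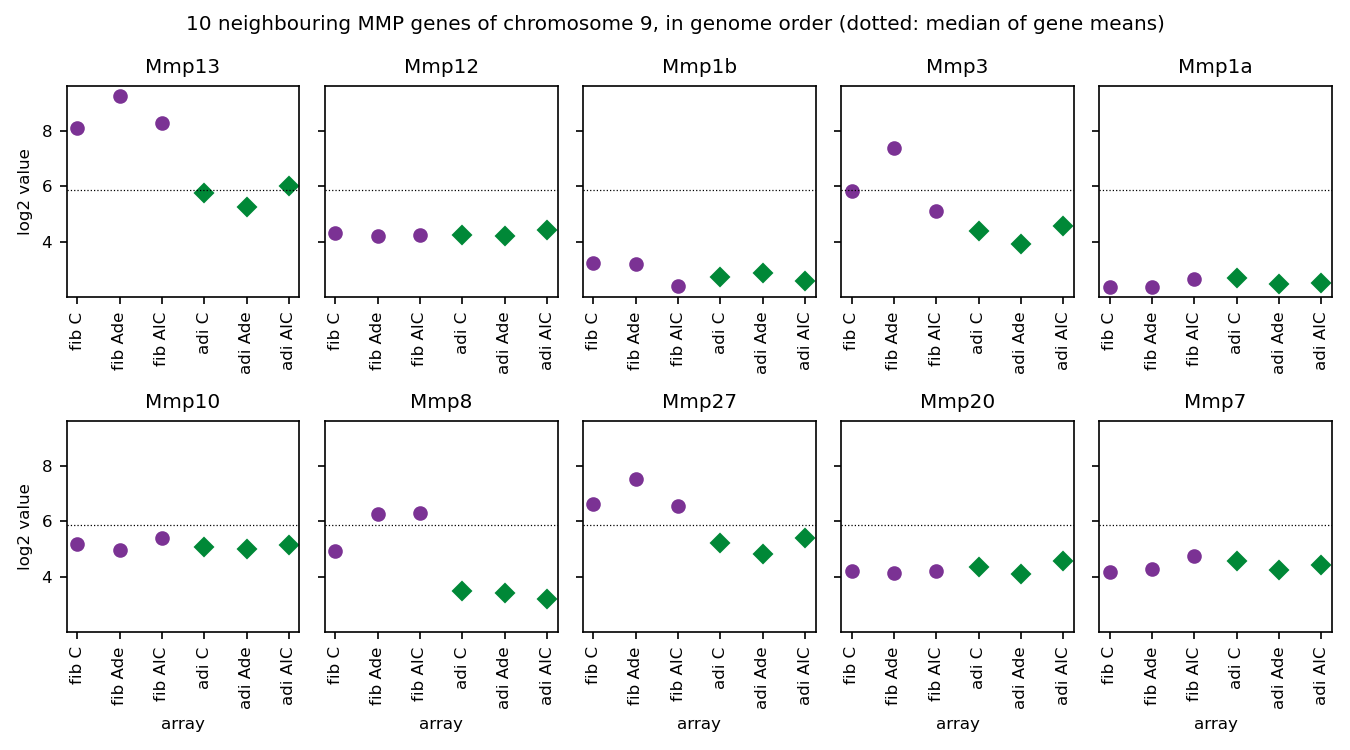
Log2 value of the 10 neighbouring Mmp genes, 1 panel per gene in genome order, with fibroblast arrays as circles and adipocyte arrays as diamonds (C control, Ade adenine, AIC AICAR) and the median of gene means as a dotted line. Mmp13, Mmp3 and Mmp27 are highest in adenine fibroblasts, at 9.28, 7.40 and 7.51, Mmp8 is at 6.27 and 6.29 with adenine and AICAR, and the other 6 panels stay below the dotted line.

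The promoters of this run of genes are shown because Mmp3 and Mmp13 are textbook targets of the AP-1 transcription factor and 3 genes of the run were highest on the same array. Each stretch is the 150 bases before the RefSeq start of the gene, on the plus strand of GRCm38.p6. Capitals mark matches to the AP-1 motif TGANTCA and to the TATA motif TATAAA that lie wholly in the stretch. The positions are chr9:7272364-7272513 for Mmp13, chr9:7445672-7445821 for Mmp3, chr9:7502192-7502341 for Mmp10, chr9:7558279-7558428 for Mmp8 and chr9:7571246-7571395 for Mmp27. Timp3 (chr10:86300262-86300411) is added as the gene with the largest coefficient between states.
Mmp13: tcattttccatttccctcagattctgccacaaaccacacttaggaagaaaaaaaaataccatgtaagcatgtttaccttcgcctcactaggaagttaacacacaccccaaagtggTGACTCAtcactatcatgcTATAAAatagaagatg
Mmp3: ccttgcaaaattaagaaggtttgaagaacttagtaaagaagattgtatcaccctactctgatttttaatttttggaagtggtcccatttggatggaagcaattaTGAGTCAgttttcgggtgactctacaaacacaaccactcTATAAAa
Mmp10: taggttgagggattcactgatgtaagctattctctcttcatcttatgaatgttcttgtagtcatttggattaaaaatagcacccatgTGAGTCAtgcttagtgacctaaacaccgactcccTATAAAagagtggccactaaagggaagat
Mmp8: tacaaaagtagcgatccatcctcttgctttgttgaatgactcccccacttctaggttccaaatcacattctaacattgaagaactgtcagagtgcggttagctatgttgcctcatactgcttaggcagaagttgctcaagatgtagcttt
Mmp27: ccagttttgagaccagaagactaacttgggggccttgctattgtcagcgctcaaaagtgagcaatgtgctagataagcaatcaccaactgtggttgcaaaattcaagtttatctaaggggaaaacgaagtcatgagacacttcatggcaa
Timp3: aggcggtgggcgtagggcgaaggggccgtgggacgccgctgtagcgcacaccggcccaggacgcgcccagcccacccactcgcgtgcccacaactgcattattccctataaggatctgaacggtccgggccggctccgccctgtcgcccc

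Both strands of the window from 250 bases before to 50 bases after the start were searched. RefSeq windows were at hand for 52 of the 83 genes. The AP-1 motif was found for 8 of the 10 neighbouring Mmp genes, beside 8.97% of 27025 genes with a window and 5 of the 42 other members. The 8 matches begin 35 to 95 bases before the start, at 35 for Mmp13, 46 for Mmp3 and 63 for Mmp10. Mmp8 and Mmp27, both higher with adenine in fibroblasts, had no such match. Mmp12, Mmp1b, Mmp1a, Mmp10, Mmp20 and Mmp7 each had one, with adenine differences in fibroblasts from -0.21 to 0.11. Whether the match has to do with the adenine values was not tested. The TATA motif was found anywhere in the window for 9 of the 10, beside 15.7% of all genes. For Mmp8 the match lies on the other strand, begins 3 bases before the start and runs past the end of the printed stretch. For Mmp12 it begins at base 5 past the start. The GC box GGGCGG was found for 0 of the 10, for 25 of the 42 other members and for 38.2% of all genes. The median GC content of the windows was 42.8% in the 10 genes, 62.8% in the 42 others and 53.3% over all genes. A match describes these letters and shows no binding.

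AICAR fibroblasts were set against the same control fibroblasts, so the 2 comparisons share that array. Timp3 and 5 proteases lay at least 2-fold below the control. Of the 33 genes 6 passed 2-fold downward (3.69%) and 0 upward (1.7%), and the median was -0.23 beside -0.03 over all genes. Timp3 was lower by 1.81 (3.50-fold), Mmp19 by 1.54 and Mmp9 by 1.48 (5.51 against 6.99). Adamts12 was at -1.09, Mmp23 at -1.01 and Adamts9 at -1.01. The Adamts9 value rests on its brightest probe set, and the mean over its 6 probe sets was -0.53. After quantile normalization Adamts9 and Mmp23 stood at -0.96 each, which left 4 genes past 2-fold. Timp1 and Timp2 stood at -0.51 and -0.42. Adamts1 was the highest of the 33 genes at 0.72, with 11.08 in control and 11.79 in AICAR fibroblasts, followed by Adamts10 at 0.56.

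The AICAR fibroblasts did not share the adenine values at Mmp13 (0.19) and Mmp27 (-0.09), and Mmp3 was at -0.72. Mmp8 was the 1 of the 4 chromosome 9 genes that was at least 2-fold higher with either compound, at 6.29 with AICAR against 4.91 in the control. It was the 1 gene of 50 below the median that was at least 2-fold apart in this comparison (1.0% of that class). Of the fibroblast markers 7 of 10 were lower with AICAR, with a list median of -0.64, and their part in the lower Mmp, ADAMTS and Timp values was not tested. Of the 9 adipocyte markers 2 were lower with AICAR in fibroblasts, with a list median of 0.24 and a range from -0.37 (Adipoq) to 1.65 (Fabp4).

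The adipocytes induced with adenine were then set against the control adipocytes. Of the 4 comparisons of a compound with its control, this one held the most members past 2-fold, among them 5 ADAMTS and 2 Timp genes. Of the 33 genes 28 lay below 0, while 47.5% of all genes above the median did, and the median was -0.51 beside 0.02. By counts 9 passed 2-fold downward (2.4%) and 0 upward (1.24%). Adenine adipocytes were the lowest of the 3 adipocyte arrays for 23 of the 33 genes and for 35.9% of all genes above the median. The adenine medium had been replaced 3 days before these cells were collected, according to the labels' protocols.

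Timp2 gave the largest difference here, at -1.75 (3.35-fold lower), with 11.09 in control, 9.34 in adenine and 11.04 in AICAR adipocytes. Timp1 was at -1.17 (8.76 against 7.58), and Timp3, already dim in control adipocytes at 4.80, was at -0.51. Among the proteoglycan-cutting enzymes Adamts5 was lower by 1.23, Adamts1 by 1.14 and Adamts4 by 1.04. After median centring Adamts4 (-0.96) and Adam23 (-0.99) were no longer past 2-fold. Adamts14 was at -1.54 (7.44 against 5.90) and Adamts12 at -1.10. Thus 5 of the 11 ADAMTS genes above the median were at least 2-fold lower. Mmp14 was the 1 of 9 Mmp genes to reach 2-fold, with 10.27 against 9.17, and Mmp2 followed at -0.87.

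Most of the other members kept closer to the control adipocytes. Adam17 was the highest at 0.46, ahead of Adam15 (0.14), Mmp28 (0.07) and Adam12 (0.05). Adam23 was also at least 2-fold lower, at -1.07, and Adam10 was at -0.77. Mmp11 was at -0.18. Fibroblast markers moved with the lower values: 10 of 10 were lower in adenine adipocytes, with a median difference of -1.51, while 8 of 9 adipocyte markers were higher, with a median of 0.99. Their part in the lower Timp and ADAMTS values was not tested. Macrophage and leukocyte markers were lower in 10 of 10 cases, with a median of -0.26, and 8 of the 10 had a mean below the median of gene means. Of all genes below that median 71.0% lay below 0 in this comparison, with a median difference of -0.13. Whether the 10 of 10 has to do with fewer leukocytes was not tested.

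Adipocytes induced with AICAR shared their control array with the adenine comparison and differed from it most at ADAMTS genes. Of the 33 genes 2 passed 2-fold downward (0.381%) and 0 upward (0.612%), and the median was -0.10 beside -0.01 over all genes. Adamts12 was lower by 1.57, with 11.12 in control and 9.54 in AICAR adipocytes, and Adamts14 by 1.09. Adam12 stood at -0.84, Adam19 at -0.70 and Adamts9 at -0.64. Mmp11 was the highest at 0.33. The Timp genes were at -0.48 (Timp1), -0.04 (Timp2) and 0.15 (Timp3). Adamts12 was thus below its control in both states with AICAR and in adipocytes with adenine, and at 0.26 in adenine fibroblasts.

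**Figure D4:**
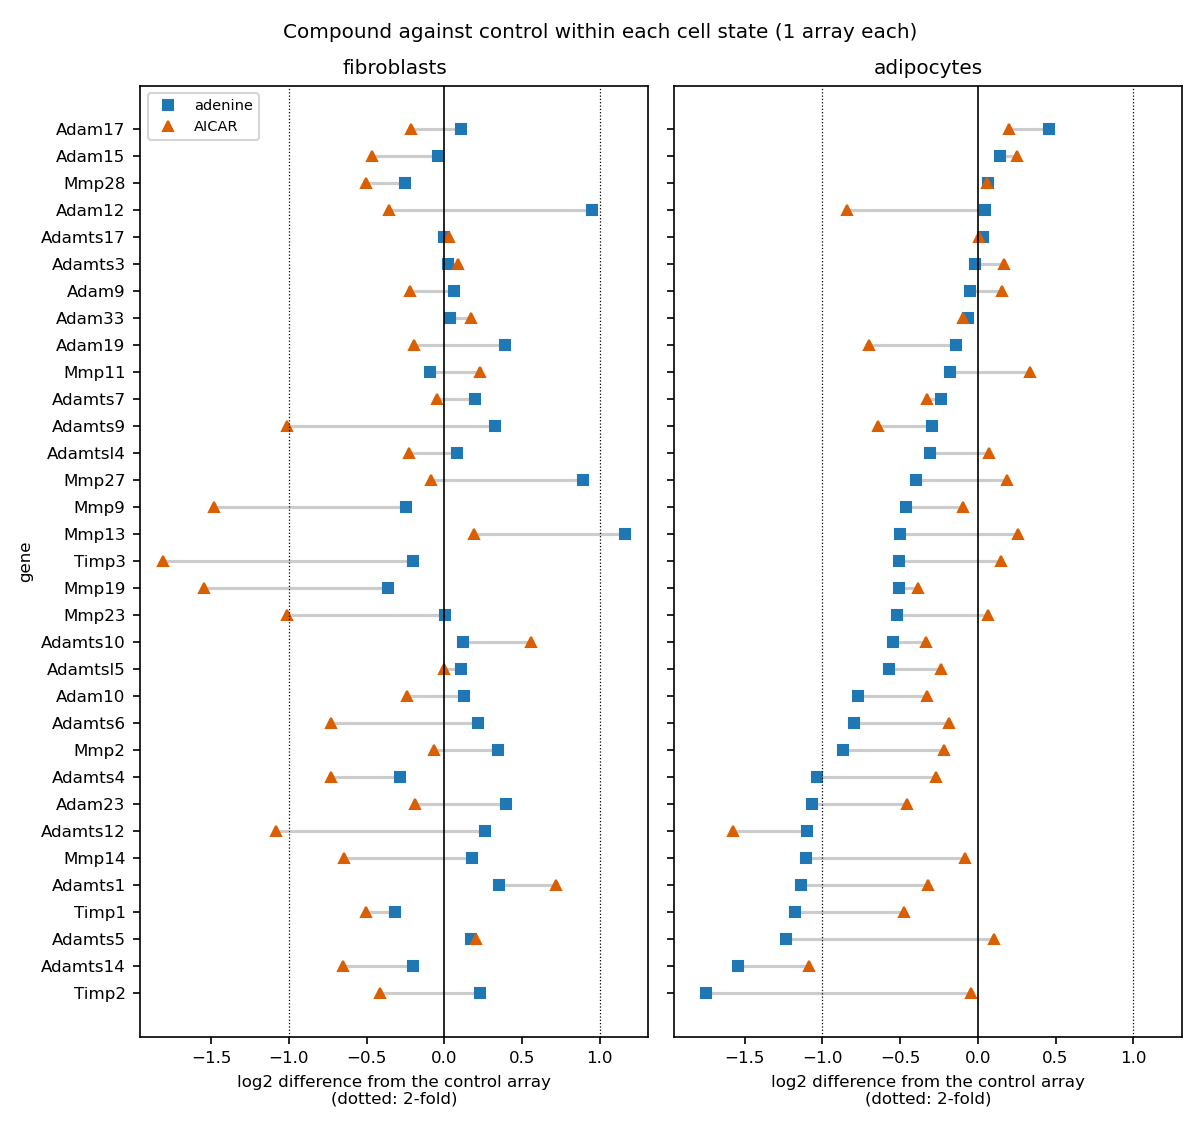
Log2 difference from the control array of the same cell state for the 33 genes above the median, with adenine as blue squares and AICAR as orange triangles, fibroblasts at the left and adipocytes at the right, ordered by the adenine difference in adipocytes. In fibroblasts Mmp13 lies past the 2-fold line with adenine and 6 genes lie past it below 0 with AICAR. In adipocytes 9 genes lie past it with adenine and 2 with AICAR.

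Adenine and AICAR were given at the same concentration and for the same time, and they differ in structure as a free base and a ribonucleoside. With 1 array each the difference between them has no test and no interval. In fibroblasts 7 of 33 genes were at least 2-fold lower with AICAR than with adenine (3.89%) and 0 at least 2-fold higher (1.59%). They were Timp3 (-1.60), Adamts12 (-1.35), Adamts9 (-1.34), Adam12 (-1.31), Mmp9 (-1.24), Mmp19 (-1.18) and Mmp23 (-1.02). In adipocytes 3 other genes were at least 2-fold higher with AICAR than with adenine (2.21%) and 0 lower (1.21%). These were Timp2 (1.70), Adamts5 (1.34) and Mmp14 (1.02). Adam12 (-0.89), Adamts12 (-0.47) and Adamts9 (-0.35) were lower with AICAR in adipocytes too. Mmp3, below the median, was lower by 2.28 with AICAR than with adenine in fibroblasts, and Mmp8 was at 0.02.

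The 50 genes below the median are 13 Mmp, 26 Adam, 7 Adamts, 3 Adamtsl and 1 Timp gene. They include the ADAM genes known mainly from testis and sperm, such as Adam2, Adam3, Adam5, Adam18, Adam24, Adam25 and Adam29, whose means lay between 1.87 and 4.02. For 46 of the 50 genes no comparison against a control or between states reached 2-fold. Between states the number at least 2-fold apart either way was 3 in control medium (1.34% of genes in this class), 3 with adenine (2.29%) and 2 with AICAR (1.58%). In adipocytes it was 0 with adenine (0.632%) and 0 with AICAR (0.13%).

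The 4 that did reach it are Mmp3, Mmp8, Adamts15 and Adam4. Adamts15, a versican-cutting enzyme, just missed the filter with a mean of 5.84, next to Adamts6 with 5.94 inside it. Its values were 5.20, 5.21 and 5.37 in fibroblasts and 6.82, 6.48 and 5.95 in adipocytes, so it was higher in each medium, by 1.62, 1.27 and 0.58. Mmp8 was lower in adipocytes by 1.44, 2.85 and 3.10, with adipocyte values of 3.19 to 3.48. Mmp3 was lower by 1.46, 3.49 and 0.53. Adam4 varied between 4.40 and 6.10, and a further probe set that names it together with another gene was not used. Near-identical copies such as Mmp1a and Mmp1b, or Adam26a and Adam26b, may share hybridisation and were not told apart further. Timp4, the inhibitor most often linked with fat and muscle, stayed between 4.72 and 5.35.

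The genes around these proteases were taken as 3 lists, chosen with earlier results of these data known. Of 29 regulators of metalloproteinase activity (activating convertases, plasminogen activators, membrane partners and other inhibitors) 27 were on the array and 14 above the median. In the state model 1 rose and 1 fell, near the shares over all genes (5.22% and 5.37%): Tspan14, a tetraspanin partner of Adam10, rose by 0.88 (SE 0.142, limma adjusted p = 0.0239), and Plat, the tissue plasminogen activator, fell by 2.16 (SE 0.437, limma adjusted p = 0.0377). In adenine adipocytes 13 of 14 lay below 0 (47.5% of all genes), with Plat at -1.83, the procollagen enhancer Pcolce at -1.47 and the membrane-anchored Mmp inhibitor Reck at -1.43 past 2-fold (2.4% of all genes). In AICAR fibroblasts Pcolce was at -1.49 and Tspan17 at -1.22. The proteins that carry Adam17 to the surface, Rhbdf1 and Rhbdf2, were at -0.29 and 0.29 in adenine adipocytes and at -0.20 and 0.87 in AICAR fibroblasts.

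Of 24 matrix substrates 16 were above the median and 0 passed in the state model, with 7 at an unadjusted p under 0.05 in limma, as had 2941 of all 9969 genes. In adenine adipocytes 15 of 16 were below 0 (47.5% of all genes) and 4 at least 2-fold lower (2.4%), from Col1a1 (-1.75) and Col3a1 (-1.64) to Dcn, the proteoglycan decorin (-1.57), and Col1a2 (-1.46). The versican gene Vcan, a substrate of Adamts1, Adamts9 and Adamts15, had 10.87 in control fibroblasts and 12.38 in control adipocytes. Of 25 membrane proteins shed by Adam10 or Adam17, 19 were above the median and 1 fell, which is the share over all genes (5.37%). It was the adhesion molecule gene Vcam1, which fell by 1.41 (SE 0.267, limma adjusted p = 0.0322). In adenine adipocytes 16 of 19 were below 0 (47.5% of all genes), among them Ncam1 at -1.44 and Vcam1 at -1.37. The median differences of the 3 lists in adenine adipocytes were -0.34, -0.52 and -0.56, beside -0.51 in the 33 protease and inhibitor genes. Col1a1, Col1a2, Col3a1 and Fn1 of the substrates and Dlk1 of the shed proteins are also in the fibroblast marker list. Their lower values are therefore the same ones already counted there.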

How the data were processed

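Biotin-labelled total RNA was read on Affymetrix arrays with whole-transcript kits, per the labels. The deposited table gives log2 expression of 35556 probe sets in each of 6 samples. The submitters' processing notes name build mm10 and the Transcriptome Analysis Console, version 1.0.0.234. How the authors corrected background, normalized and summarised probes is not stated there, and values were used as deposited. Gene names came from the platform annotation, in which 21789 probe sets have 1 symbol, 1621 have several and 12146 have none. Of a gene's probe sets the one with the highest mean was taken. Of the 83 members 79 had 1 probe set, 83 matched RefSeq, and 2 further probe sets with several symbols were not used.

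The log2 values of 2 arrays were subtracted in 7 comparisons, and in 2 of AICAR against adenine. State was tested with limma 3.58.1 in R 4.3.3 over 9969 genes (2 residual and 3.64 prior degrees of freedom), with Benjamini-Hochberg adjustment at 0.05. Data were simulated over 9969 genes with a state effect in 200 of them, no medium effect and independent noise. On these the model made 127 calls, of which 8 were false, and it found 25% of the 2-fold and 94% of the 4-fold changes. A medium that acts otherwise in each state on many genes was not simulated, so these rates need not hold for the arrays. The members follow from the naming rule, which uses no measured values. This family and the lists were, however, taken up with earlier results of these data known. Named are the members above the median, those below it that reached 2-fold in any comparison, and examples of the lists. Promoter windows came from RefSeq (GRCm38.p6). Alternatives were other normalizations, filters, probe set rules and thresholds, no block, and leaving out each medium.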

Additional observations from a re-analysis of the deposited data

Results flagged for a closer look

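Adam34, a testis-type ADAM gene, was the 1 member of 83 whose adenine difference was at least 1.5-fold in opposite directions in the 2 cell states. It stood at 0.75 in fibroblasts and at -0.65 in adipocytes. The difference between the states was not tested, since each rests on 2 arrays. The mean of Adam34 over the arrays was 2.62, far below the median of gene means. The share of all genes that meet this rule was not counted, so the 1 of 83 has no background beside it.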

How the results depend on the processing

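With 1 array per condition the number of arrays limits each value, and differences from dim levels depend on the background correction. Quantile normalization and median centring moved no named difference of 2-fold or more by over 0.1 and changed no call of the 33 genes in the state model. They did end 2-fold calls close to the threshold: 4 members were lower with AICAR in fibroblasts after quantile normalization (Adamts9 -0.96 and Mmp23 -0.96 were lost), and 7 with adenine in adipocytes after median centring (Adam23 -0.99 and Adamts4 -0.96 were lost). Averaging over probe sets moved the Adamts9 differences to -0.53 (AICAR in fibroblasts) and 1.05 (state, AICAR) and the median difference between states with adenine to -1.10. Without the filter the medians were 0.044 (state, control), -0.13 (state, adenine), 0.0100 (AICAR in fibroblasts) and -0.23 (adenine in adipocytes), 3 members were higher with adenine and 1 with AICAR in fibroblasts. With the 75th percentile filter, which left 17 members, the lower counts between states were 3 (control), 7 (adenine) and 3 (AICAR). Against the controls they were 3 (AICAR in fibroblasts) and 1 (AICAR in adipocytes), and 0 were higher with adenine in fibroblasts. In the state model 3 rose and 3 fell. The medians were then -0.077, -0.35 and 0.19 between states (control, adenine, AICAR), -0.36 (AICAR in fibroblasts), -0.77 (adenine in adipocytes) and -0.22 (AICAR in adipocytes). At 1.5-fold 6 and 4 members were higher between states (control, adenine) and 11 lower (AICAR). In fibroblasts 3 were higher with adenine, and 1 was higher and 10 lower with AICAR. In adipocytes 5 were lower with AICAR. Leaving out 1 medium gave 0 to 3 members that rose and 0 to 10 that fell, with both 0 without the control arrays. Without the block 14 members passed, of which 11 also passed with it; Mmp14, Mmp23 and Mmp28 were added and Adamts9 was lost.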

Other observations

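The protein-coding genes on both sides of the run of Mmp genes on chromosome 9 were read on the same arrays, a choice made after the Mmp values were seen. On the left, Dcun1d5, a neddylation factor, stood at 0.01 and Dync2h1, a ciliary motor gene, at -0.03 with adenine in fibroblasts. On the right, the membrane protein gene Tmem123 was at 0.24, the apoptosis inhibitor genes Birc2 and Birc3 at 0.14 each, and Yap1, the Hippo pathway coactivator, at 0.11. Further left, the inflammatory caspase genes Casp4 and Casp12 were at -0.29 and 0.11 with adenine and at 0.59 and 1.18 with AICAR. Mmp13, Mmp3, Mmp8 and Mmp27 had the largest adenine differences in fibroblasts in this region, the same values by which they had been singled out.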
